A study of Drosophila melanogaster with 2 samples.

Results

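The growth-blocking peptide genes of Drosophila melanogaster were examined in RNA of whole embryos that lacked or carried hemocytes, the blood cells of the fly. Of the 4 symbols considered (Gbp1, Gbp2, Gbp3 and mthl10), Gbp2 and Gbp3 each had 1 probe that the platform annotation assigned to a single gene, which gives 2 measured members among 8224 genes. No probe with a single symbol was annotated to Gbp1 or mthl10, and both were not analysed here. The members were chosen by symbol, with the ratios of this comparison already known, so their values are given as a description and carry no test.

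Growth-blocking peptides are small secreted cytokines of insects, made as longer precursors that proteases cut to release the active peptide. In Drosophila the fat body makes Gbp1 and Gbp2, which signal nutritional state to the cells that secrete insulin-like peptides. Mthl10, a G protein-coupled receptor of the methuselah family, binds these peptides and releases calcium from internal stores through phospholipase C. The same route raises calcium around epidermal wounds after proteases are set free, and growth-blocking peptides also act on hemocytes and on antimicrobial defence.

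The comparison had a mutant and a wild-type group of embryos. Hemocyte minus embryos were serpent (srp) mutants, in the words of the design, and hemocyte plus embryos were wild type. serpent encodes a GATA transcription factor known to be required for both embryonic hemocytes and the fat body. The sources used here do not state the allele, the age of the embryos or the number pooled. The embryos of array A were labelled unwounded, and the labels of array B do not repeat the word. Each of the 2 arrays, A and B, carried both RNAs: hemocyte minus RNA was labelled with Cy3 on array A and with Cy5 on array B, and hemocyte plus RNA with the other dye. Whether both arrays were made from the same extracts is not stated, and if so they are 1 biological replicate. The spread quoted below is in any case only the spread between 2 arrays.

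Values are log2 ratios of hemocyte minus over hemocyte plus, centred on the median of each array. The sources used here do not state the dye in the numerator of the deposited ratios. Cy3 was taken as the numerator because the hemocyte genes, 19 of 21 plasmatocyte genes and 5 of 6 crystal cell genes, are then below 0, as the name hemocyte minus would have it. This direction is likely and not settled, it rests on these same data, and every sign below turns if Cy5 was the numerator. Across the 8224 genes the 2 arrays had Pearson r = 0.746, and their median absolute difference was 0.172 in log2 ratio. The mutated gene, srp, lay at -0.15 and -0.36 on arrays A and B and was not past the threshold of 0.05 on the p-value that limma gave, adjusted over all genes (limma adjusted p = 0.221). Where its probe lies relative to the lesion is not given, so srp does not check the genotype.

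Gbp2 was much lower in hemocyte minus embryos than in hemocyte plus embryos on both arrays. Its deposited ratio had a size of 0.164 and 5.661 on arrays A and B, where the dyes were swapped. The product of these sizes was 0.928, where an ideal dye swap gives a product of one, so the ratio turned over almost fully with the dyes. Turned and centred, hemocyte minus over hemocyte plus was 0.166 and 0.18 on arrays A and B. The log2 ratio was -2.59 and -2.47 on arrays A and B, with a mean of -2.53 ± 0.09 (SD, n = 2 arrays). This is a level 5.78-fold lower in hemocyte minus embryos, 6.03-fold on array A and 5.54-fold on array B.

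The difference of 0.12 between the arrays was small beside the ratio itself, and 63.5% of all genes had a wider gap between their arrays. Counted from the lowest mean ratio, Gbp2 was in place 12 of 8224 genes, in place 11 on array A and in place 15 on array B. With Cy5 as the numerator it would hold place 12 from the highest instead. The 1st percentile of all genes was -1.14, so Gbp2 lay far outside the bulk of genes. On both arrays at least 2-fold lower were 96 genes (1.17% of those measured), Gbp2 among them, a place that the choice of members had already fixed. CG42369 at -2.56 ± 0.80 and PPO3 at -2.55 ± 0.01 stood just before Gbp2 in this order. Cyt-b5-r at -2.51 ± 0.05 and CG8100 at -2.45 ± 0.12 stood just after it. The means of all 4 differed from that of Gbp2 by less than its SD.

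Gbp3 lay near 0, with no common direction on the arrays. The size of its deposited ratio was 1.197 and 1.05 on arrays A and B. Both sizes were above one, so the same dye was the brighter on both arrays although the RNAs had been exchanged. Hemocyte minus over hemocyte plus was 1.21 and 0.972 on arrays A and B, which gives log2 ratios of 0.28 and -0.04. The mean of 0.12 ± 0.22 (SD, n = 2 arrays) was smaller than its spread, and the sign differed between the arrays. A change of sign between arrays was seen in 31.4% of all genes. Gbp3 was in place 5571 of 8224 from the lowest, or in place 2654 with Cy5 as the numerator, and 36.6% of genes had a mean ratio closer to 0. The log2 ratio of Gbp3 exceeded that of Gbp2 by 2.87 on array A and by 2.43 on array B, so the peptide genes separated on each array by far more than either gene differed between arrays.

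**Figure D1:**
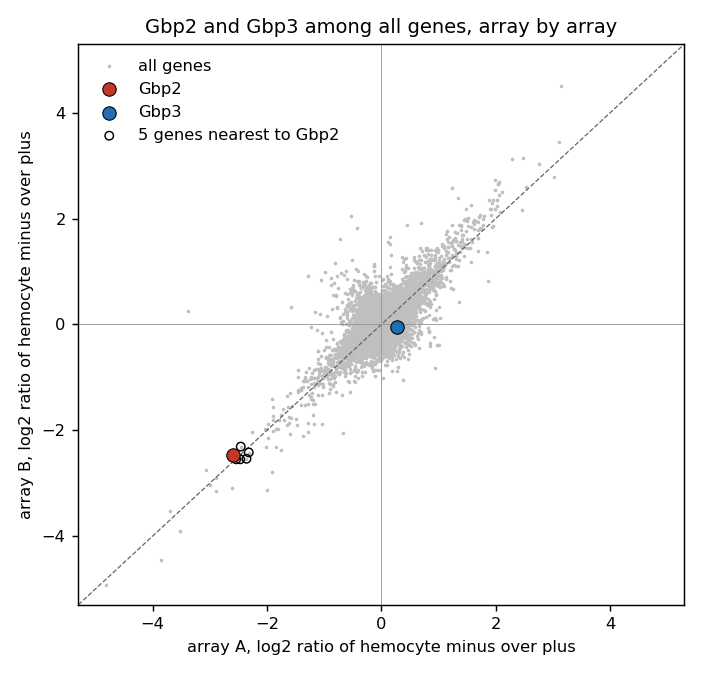
Log2 ratio of hemocyte minus over hemocyte plus on array A (horizontal) against array B (vertical), 1 grey point for each of 8224 genes, with Gbp2 in red, Gbp3 in blue, the 5 genes nearest to Gbp2 as open circles and the line of equal values dashed. Gbp2, at -2.59 and -2.47, lies close to the dashed line and far from the central cloud, and Gbp3, at 0.28 and -0.04, lies inside the cloud.

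The annotated genome places Gbp1 and Gbp2 next to each other, with no gene between them, whereas Gbp3 lies on another chromosome arm. Whether the cDNA probe of Gbp2 (clone GH14572) also binds transcripts of Gbp1 was not examined. The genes measured nearest to the Gbp1 and Gbp2 pair did not share the low ratio of Gbp2. CG11400, 3 genes away from Gbp2 on the side of Gbp1, had log2 ratios of 0.14 and 0.11 on arrays A and B (limma adjusted p = 0.515). CG17290, 8 genes away on the other side, had 0.28 and 0.57 on arrays A and B (limma adjusted p = 0.0791). Neither passed the test and both were on the other side of 0 from Gbp2, while the genes in between were not analysed here.

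Near Gbp3 (clone RH17470), the adjacent gene Nha2, which encodes a sodium/proton antiporter, had log2 ratios of 0.01 and -0.32 on arrays A and B. The immunoglobulin-domain gene klg, 5 genes away on the other side, had -0.01 and 0.00 on arrays A and B. Neither passed the limma test (adjusted p = 0.489 for Nha2 and 0.968 for klg).

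The genes whose pair of ratios lay closest to that of Gbp2, by Euclidean distance over the 2 arrays, were PPO3, Cyt-b5-r, Ppn, CG8100 and Ance-5. PPO3, a prophenoloxidase gene known from lamellocytes, was nearest at a distance of 0.097, with -2.54 and -2.55 on arrays A and B. Cyt-b5-r, a cytochrome b5-related gene, had -2.47 and -2.55 on arrays A and B. Ppn, the gene of the extracellular matrix protein papilin, had -2.46 and -2.31. CG8100 had -2.36 and -2.54, and Ance-5, a relative of angiotensin-converting enzyme, had -2.32 and -2.42. These 5 were all the genes within 0.5 of Gbp2. For Gbp3, 4909 genes lay within the same distance, since it sits where most genes are. The nearest of these, the serotonin receptor gene 5-HT1A, CG17744, wuc, the dynein heavy chain gene Dhc36C and the scaffold gene cnk, therefore single it out in no way. A likeness over 2 arrays rests on 2 values per gene.

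Of all genes, 0.134% had a lower mean ratio than Gbp2, so nearly any list of genes would lie above it. The ratio of Gbp2 was below that of each of the 21 plasmatocyte genes and each of the 19 fat body genes measured. Only PPO1 (-4.87 ± 0.08) and PPO2 (-3.71 ± 0.28), prophenoloxidase genes of crystal cells, lay below it among the 6 crystal cell genes. The nearest plasmatocyte gene was Ppn at -2.39 ± 0.10. The nearest fat body gene was the lipoprotein gene apolpp at -1.33 ± 0.24, a 2.52-fold lower level against 5.78-fold for Gbp2. In RNA of whole embryos, fewer cells of a type and less RNA per cell cannot be told apart.

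Of the fat body genes, the tissue in which Gbp1 and Gbp2 are known to be made, 10 of 19 were past the limma threshold (adjusted p under 0.05) and lower in hemocyte minus embryos, where 5.27% of all genes were. The sugar transporter gene Tret1-1 had -1.21 and -1.29 on arrays A and B (limma adjusted p = 0.0016). AkhR, the receptor for adipokinetic hormone, had -0.85 and -0.48 on arrays A and B (limma adjusted p = 0.025). The others were apolpp, Col4a1, Apoltp, Mtp, Fbp1, bmm, FASN1 and Lsd-1, from -1.33 to -0.67. Tested against a 1.2-fold difference, 6 fat body genes were lower. Gpdh1, a glycerol-3-phosphate dehydrogenase gene, was past the threshold and higher at 0.48 ± 0.07 (limma adjusted p = 0.0403). The fat body protein gene Fbp2 had -0.55 and 0.59 on arrays A and B. The fat body list had 14 genes below 0 and 5 above, with a median of -0.66, against 0.00 over all genes. Of the plasmatocyte genes 11 of 21 were lower and none higher, with a median of -0.55. Of the crystal cell genes 3 of 6 were lower and none higher, with a median of -0.50. The numerator was chosen so that these hemocyte lists fell below 0, so their direction follows from that choice and is not a result. The 11 plasmatocyte genes were Ppn, NimC4, Pxn, NimC1, Col4a1, SPARC, crq, Glt, NimB4, Pvr and Hml. Col4a1 is in the fat body list too and counts in both. The third crystal cell gene was the malic enzyme gene Men. Against a 1.2-fold difference 8 plasmatocyte and 2 crystal cell genes were lower, and the calls of SPARC, NimB4, Hml and Men were lost. The call of NimC1 ended when probes named with ReAmp, rdnd or dupe were left out, where its ratio was -0.39 in place of -1.01 (limma adjusted p = 0.0829). The 2 probes of Glt differed in size: their mean was -0.80, and the probe of largest change lay at -1.52. These lower levels of fat body and hemocyte genes stand beside that of Gbp2, and their part in it was not tested.

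**Figure D2:**
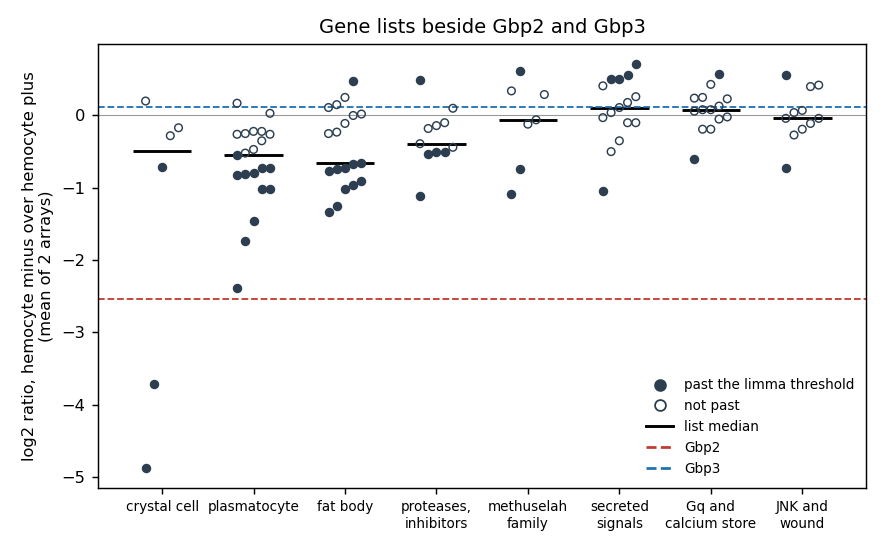
Mean log2 ratio of hemocyte minus over hemocyte plus over 2 arrays (vertical) for each measured gene of 8 lists, filled where past the limma threshold and open where not, with list medians as bars and the values of Gbp2 (red, dashed) and Gbp3 (blue, dashed) as lines. The points below the Gbp2 line are PPO1 and PPO2. Above the Gbp3 line lie 7 of 15 secreted signals, 6 of 14 calcium store genes and 3 of 7 methuselah family genes. The same holds for 3 of 11 JNK and wound genes, 3 of 19 fat body genes and 1 gene of each other list. Of all genes, 67.7% lie below this line.

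The methuselah family, to which the receptor Mthl10 belongs, did not move together. Of 15 other family members, 7 were measured; 2 were past the limma threshold and lower in hemocyte minus embryos (28.6%) and 1 was higher (14.3%), where 5.27% of all genes were lower and 8.18% higher. mthl8 had -1.03 and -1.12 on arrays A and B, a 2.11-fold lower level (limma adjusted p = 0.00254). mthl5, known for a part in heart development, had -0.76 and -0.72 on arrays A and B, a 1.67-fold lower level (limma adjusted p = 0.00865). Both arrays placed these receptor genes on the side of Gbp2, although far closer to 0, as nearly all genes were.

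The receptor gene adjacent to mthl10 on one side, mthl9, had 0.58 and 0.65 on arrays A and B, a 1.53-fold higher level (limma adjusted p = 0.0166, and 0.107 against a 1.2-fold difference). On the other side of mthl10 lies mth, the founding member of the family, known for its effect on lifespan, with 0.40 and 0.27 on arrays A and B (limma adjusted p = 0.114). mthl14 had a mean of 0.29, mthl1 of -0.06 and mthl2 of -0.12, and none of these passed. The median of the 7 was -0.06, near that of all genes.

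Genes listed for Gq, phospholipase C and calcium store signalling lay between -0.6 and 0.57. All were closer to 0 than Gbp2, as were 99.7% of all genes. Whether each of them acts with Mthl10 was not tested. Of 14 measured genes of the Gq, phospholipase C and calcium store list (21 listed), 1 was lower and 1 higher past the limma threshold, with a median of 0.08. That is 7.14% in each direction, near the 5.27% lower and 8.18% higher over all genes, and neither call held against a 1.2-fold difference. The gap junction gene Inx2, whose product lets calcium signals pass between cells, had -0.54 and -0.65 on arrays A and B (limma adjusted p = 0.0198). CanB2, a regulatory subunit of the calcium-dependent phosphatase calcineurin, had 0.60 and 0.54 on arrays A and B (limma adjusted p = 0.0219). The phospholipase C gene Plc21C lay at -0.19 ± 0.00, the store calcium sensor gene Stim at 0.08 ± 0.01, the channel gene Orai at -0.19 ± 0.04 and the store pump gene SERCA at 0.06 ± 0.02, and these did not pass. The G protein gene Galphaq had 0.47 and 0.00 on arrays A and B. CanB, at 0.43 ± 0.02, was just short of the threshold (limma adjusted p = 0.0533). The store channel gene Itpr was not analysed here.

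Other secreted signals all lay closer to 0 than Gbp2, as did 99.7% of all genes. Of 30 listed cytokine, growth factor and hormone genes 15 were measured, of which 1 was lower and 4 were higher past the limma threshold, with a median of 0.11. The lower share of 6.67% was near the 5.27% over all genes, and the higher share was 26.7%, against 8.18% over all genes. Against a 1.2-fold difference 1 of the 4 higher calls, that of Pvf1, was left. ImpL2, whose product binds insulin-like peptides and dampens their action, had -1.10 and -1.0 on arrays A and B, a 2.07-fold lower level (limma adjusted p = 0.00269). Sdr, which encodes another secreted binder of insulin-like peptides, had 0.42 and 0.59 on arrays A and B, a 1.42-fold higher level (limma adjusted p = 0.0367). The pair of insulin-binding genes thus lay on different sides of 0 on both arrays.

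Pvf1, a ligand of the hemocyte growth factor receptor Pvr, had 0.69 and 0.73 on arrays A and B, a 1.63-fold higher level (limma adjusted p = 0.01). The tumour necrosis factor gene egr had 0.46 and 0.65 on arrays A and B (limma adjusted p = 0.029), and the activin-like ligand gene daw 0.42 and 0.58 (limma adjusted p = 0.0385). Of the signals tied to insulin-producing cells, CCHa2 had 0.17 and -0.24 on arrays A and B. sun, which encodes a peptide ligand of Methuselah, had 0.39 and 0.42 (limma adjusted p = 0.0622). The insulin-like peptide gene Ilp2 had -0.03 and 0.38 on arrays A and B. None of CCHa2, sun and Ilp2 passed.

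Proteases that act on secreted precursors, and protease inhibitors, were mostly below 0. Of 11 measured (15 listed), 4 were lower and 1 was higher past the limma threshold, 9 were below 0, and the median was -0.39. The lower share was 36.4%, against 5.27% over all genes, and the higher share of 9.09% was near the 8.18% over all genes. grass, a clip-domain protease gene of the Toll pathway, had -1.22 and -1.01 on arrays A and B, a 2.16-fold lower level (limma adjusted p = 0.00267). Hayan, a protease gene of melanization, lay at -0.53 ± 0.10 (limma adjusted p = 0.0314), and ea, which encodes the protease Easter that cuts the Toll ligand Spätzle, at -0.50 ± 0.19 (limma adjusted p = 0.0478). The serpin gene Spn27A, an inhibitor of melanization, lay at -0.50 ± 0.06 (limma adjusted p = 0.0349). amon, a prohormone convertase gene of peptide-secreting cells, was higher at 0.49 ± 0.17 (limma adjusted p = 0.0473). The furin gene Fur2 had -0.33 and 0.04 on arrays A and B and did not pass. The calls of ea and amon lie close to the threshold. Each has 1 probe, so their ratios stayed the same when every gene was represented by its probe of largest change. Their calls were still lost there, as the fit and adjustment run over all genes (limma adjusted p = 0.0591 for ea and 0.0578 for amon). Against a 1.2-fold difference grass was the only call left, with Hayan at an adjusted p of 0.261 and Spn27A at 0.323 in limma. Which protease cuts the Gbp2 precursor is not addressed by these data.

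**Figure D3:**
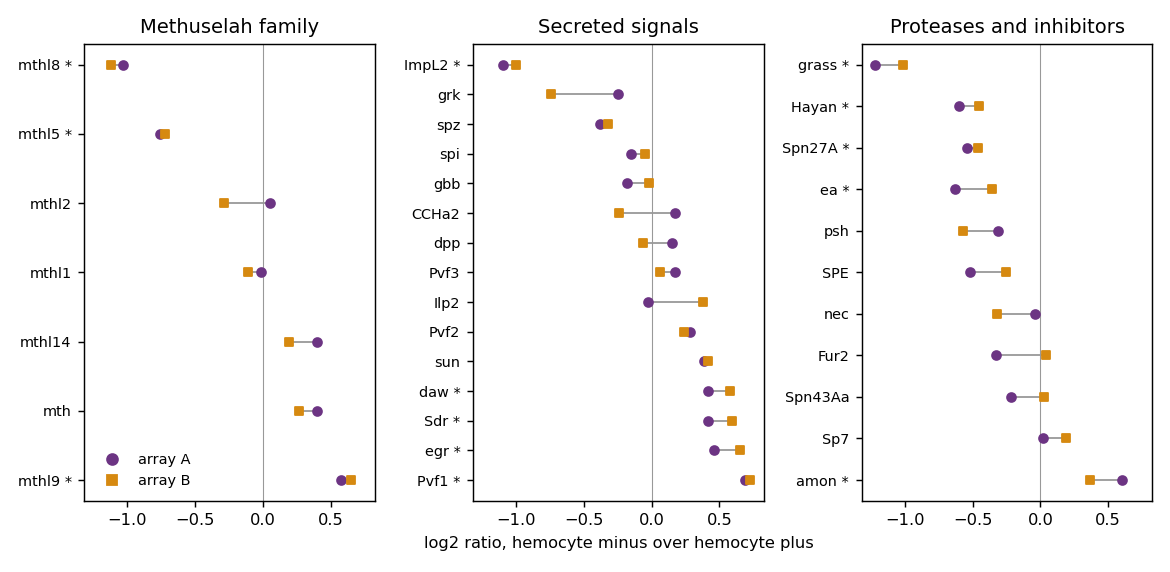
Log2 ratio of hemocyte minus over hemocyte plus (horizontal) on array A (purple circles) and array B (orange squares) for the measured genes of the methuselah family, the secreted signals and the proteases and inhibitors, with an asterisk at genes past the limma threshold. The lowest gene of each panel, mthl8, ImpL2 and grass, has means of -1.08, -1.05 and -1.11, while Gbp2, at -2.53, would lie outside the panels.

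Genes of the JNK and wound response list, which growth-blocking peptides can engage, lay between -0.73 and 0.56. All were closer to 0 than Gbp2, as were 99.7% of all genes. Of 11 measured (16 listed), 1 was lower and 1 higher past the limma threshold, with a median of -0.04. That is 9.09% in each direction, from 1 gene each, beside 5.27% lower and 8.18% higher over all genes, and the higher call did not hold against a 1.2-fold difference. The lower one was Pvr, the receptor of the Pvf ligands and itself a plasmatocyte gene, at -0.73 ± 0.01 (limma adjusted p = 0.00879), and the higher one was egr, described above. puc, a phosphatase gene commonly read as a target of JNK signalling, lay at -0.04 ± 0.00. The Fos gene kay lay at 0.42 ± 0.05 (limma adjusted p = 0.057), and the epidermal growth factor receptor gene Egfr at -0.27 ± 0.04 (limma adjusted p = 0.181). None of these 3 passed, nor did wgn at 0.40 ± 0.04 (limma adjusted p = 0.0659).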

How the data were processed

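The deposited table held 1 value per probe and array for 12144 probes, all below 0, from -31.17 to -0.01 on array A. They look like linear ratios of the dyes with a minus sign. How the authors scanned, corrected and normalized the arrays is not stated in the sources used here. Precision is limited by having 2 arrays. The size of each value was put on the log2 scale, array B was turned by the labelled dyes, and each array was centred on its probe median. Probes with 1 symbol and both values (9793) were averaged per gene. Of the 9917 probes with 1 symbol, 9746 matched the RefSeq gene table (Release 6), which also gave the gene order. The 625 probes with several symbols and 1602 unnamed probes were left out.

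An intercept-only model was fitted with limma 3.58.1 (lmFit and eBayes in R 4.3.3) with Benjamini-Hochberg adjustment over all genes and a threshold of 0.05. For each gene 2 arrays leave 1 residual degree of freedom. To this limma added 5.01 prior degrees of freedom (prior SD 0.168) from the spread of all genes. P-values thus rest mostly on the spread shared over genes, and reflect nothing beyond the spread of these arrays. Named genes were the members, every list gene past the threshold (otherwise the ends of the list), srp, the 5 genes nearest by pattern and the nearest measured genes on the chromosome. Some list genes were named beyond this rule after their values were seen, for their role in the pathway. Members and lists were chosen with earlier results of these data known.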

Additional observations from a re-analysis of the deposited data

How the results depend on the processing

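The ratio of Gbp2 moved by less than its SD without centring, with scaled arrays and with a mean of linear ratios, and ranged from -2.59 to -2.47 on single arrays. Other settings took the probe of largest change, or left out marked probes, whose names carry ReAmp, rdnd or dupe. Gbp2 and Gbp3 each have 1 unmarked probe, so these settings could not change their ratios. Gbp3 ranged from -0.04 to 0.28 on single arrays, so its sign rests on which array is used; the cause was not tested. Against a 1.2-fold difference, a stricter test by construction, 199 genes were lower and 336 higher in hemocyte minus embryos, in place of 433 and 673. Under that test the lower and higher calls were 2 and 0 in the methuselah family, 0 and 0 in the calcium list and 1 and 1 among secreted signals. They were 1 and 0 among proteases and inhibitors, 1 and 0 in the JNK list and 6 and 0 in the fat body list. Plasmatocyte genes gave 8 and 0, and crystal cell genes 2 and 0. Higher calls in the calcium list were 2 without centring, with scaled arrays and with robust moderation. In the JNK list they were 2 without centring and 3 with robust moderation. Lower secreted signals were 2 without centring. Higher proteases were 0, and higher plasmatocyte genes 1 (Tig), with the probe of largest change and without marked probes. The protease gene amon, with 1 probe, stayed at 0.49 in both settings, and only its adjusted p moved. Tig, with 2 probes, lay at 0.17 as their mean and at 0.67 in both settings, and why its probes differ was not tested. NimC1 lay at -0.39 and was not past the threshold without marked probes (limma adjusted p = 0.0829). Genes at least 2-fold higher numbered 172 to 252 on single arrays, against 150 on both. No called gene named here turned its sign in any of these settings.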
